A study of Rattus norvegicus with 16 samples.

Results

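After their axons had been cut, the pontine nuclei of rats were profiled on the lesion side at day 4, day 10 and day 37, on 1 array per day. These 3 transection arrays were picked by their sample titles and set against the 7 control arrays of the study, so that 10 of the 16 arrays entered the comparison. The controls were the contralateral nuclei of animals given a transection (days 10 and 37), saline (days 10 and 37) or lysolecithin (days 10 and 37), and 1 array of nuclei from a healthy control. Lysolecithin is a lipid that strips myelin from axons. The other 6 arrays, the saline and lysolecithin lesion sides on days 4, 10 and 37, entered the model only to share its estimate of the spread and as a second group for comparison. Each condition was hybridised once, and the 3 days therefore stood in for replicates of transection, and 6 of the 7 controls came from animals that had been operated on the other side. Day 4 had no contralateral array. The strain and the number of animals behind an array were not given in the labels, and every p-value measures the spread between single arrays of different conditions. Their number limits the precision.

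The pontine nuclei relay cortical input to the cerebellum, and their neurons send axons across the midline into it. In a neuron whose axon is cut, the cell body is known to switch on transcription factors of the Jun and ATF families, stress genes and genes of axon growth, and to turn down genes of its mature state, such as neurofilaments and the release machinery. Jun and its partners bind the AP-1 element, ATF and CREB factors bind a related cyclic AMP response element, and ATF4 and C/EBP factors bind a composite element of stress genes.

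Those 3 elements were searched as TGANTCA, TGACNTCA and TGATGNAA on both strands, in the 250 bases before the start of 21 genes that stood higher after transection, with sequences from RefSeq (build GRCr8). A window was matched for 17 of the 21 genes, and 5 of them held at least 1 match (Sprr1a, Ddit3, Trh, Dusp1 and Scg2). Gadd45a, Adcyap1, Ecel1 and Tmod1 were among the genes whose window held no match. Jun, Atf3, Gap43 and Slc7a3 had no window and could not be searched. Over all 33469 promoters of that length, 6.34% held TGANTCA, 8.88% held TGACNTCA, 3.4% held TGATGNAA and 17.4% held any of them. A match is a string of letters and no evidence of binding. The windows of 4 of the 5 genes with a match are printed, from 5′ to 3′ on the gene's strand, with the matches in capitals. Sprr1a lies on chromosome 2 (chr2:180752626-180752875, minus strand) and holds TGACATCA, then TTCCATCA, which matches TGATGNAA on the other strand, then TGAGTCA at 2 places. Ddit3 lies at chr7:65001445-65001694 (plus strand), Trh at chr4:126301763-126302012 (minus strand) and Dusp1 at chr10:17184603-17184852 (plus strand), each with 1 match.
Sprr1a: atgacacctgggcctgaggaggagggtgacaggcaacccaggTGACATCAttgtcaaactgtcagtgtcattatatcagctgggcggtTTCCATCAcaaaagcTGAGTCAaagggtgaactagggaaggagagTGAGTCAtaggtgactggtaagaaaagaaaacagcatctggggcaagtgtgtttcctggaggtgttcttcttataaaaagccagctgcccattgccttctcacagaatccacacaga
Ddit3: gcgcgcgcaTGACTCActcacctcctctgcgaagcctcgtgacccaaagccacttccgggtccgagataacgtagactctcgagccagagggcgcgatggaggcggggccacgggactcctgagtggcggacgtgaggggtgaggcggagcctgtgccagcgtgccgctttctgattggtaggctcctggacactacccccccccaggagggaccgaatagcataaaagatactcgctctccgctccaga
Trh: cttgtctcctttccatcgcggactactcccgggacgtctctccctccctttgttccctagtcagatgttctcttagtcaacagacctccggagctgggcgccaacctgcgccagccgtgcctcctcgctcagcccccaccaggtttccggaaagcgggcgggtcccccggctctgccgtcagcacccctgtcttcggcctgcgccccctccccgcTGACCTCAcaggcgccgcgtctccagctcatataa
Dusp1: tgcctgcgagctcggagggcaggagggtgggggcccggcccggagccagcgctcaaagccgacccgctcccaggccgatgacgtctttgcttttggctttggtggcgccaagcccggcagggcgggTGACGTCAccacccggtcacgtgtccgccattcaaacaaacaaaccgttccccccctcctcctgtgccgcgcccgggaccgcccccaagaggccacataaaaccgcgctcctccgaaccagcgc
Sprr1a was the gene with all 3 elements in its window, and Ddit3 carried the AP-1 letters TGACTCA. Trh and Dusp1 carried TGACCTCA and TGACGTCA.

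Signals are given as log2(signal + 16), and folds are on that scale, which understates the change of dim genes. The tests covered 4413 probe sets with Present calls on 3 or more of the 16 arrays, and 1 passed the threshold of 0.05 for transection against the controls (limma, Benjamini-Hochberg adjusted over all of them), a share of 0.0227%. It was a probe set of Jun. At an unadjusted p under 0.05 there were 233 higher (5.28%) and 254 lower (5.76%). Without the day 37 array, 64 probe sets passed in the same fit (1.45%), 40 higher (0.906%) and 24 lower (0.544%). Leaving out another transection array gave 2 without day 4, both lower, and 0 without day 10, where 305 had an unadjusted p under 0.05 (limma). The array of day 37 lay closest to the controls, so values without it describe days 4 and 10 and are not a second test of transection. Most genes called there passed in few or no other settings. Of 23 alternatives, the fit without day 37 included, Trh, Ecel1 and Ddit3 passed in that 1 only and Atf3 in 2. All 3 transection arrays lay above all 7 controls for 51 probe sets (1.16%) and below them for 58 (1.31%), 109 (2.47%) in all, standing for 43 and 45 named genes.

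Counted array by array, the day 37 array stood closest to the controls. On day 4, 56 probe sets lay above every control and at least 1 log2 unit above the control mean (1.27%), and 42 lay as far below (0.952%). On day 10 the counts were 40 higher (0.906%) and 58 lower (1.31%), and on day 37 they were 6 higher (0.136%) and 10 lower (0.227%). Of the higher ones, 23 were shared by days 4 and 10 and not by day 37, and 0 by all 3 days. Of the lower ones, 1 was shared by days 4 and 10. The arrays themselves differed little in quality: between 42.6% and 46.2% of probe sets were called Present after transection and between 39.9% and 45.7% in the controls. As a measure of RNA quality, the 3′ to 5′ ratio of the beta-actin probe sets stood at 1.43, 1.08 and 1.07 after transection and at 1.04 to 1.53 in the controls.

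**Figure D1:**
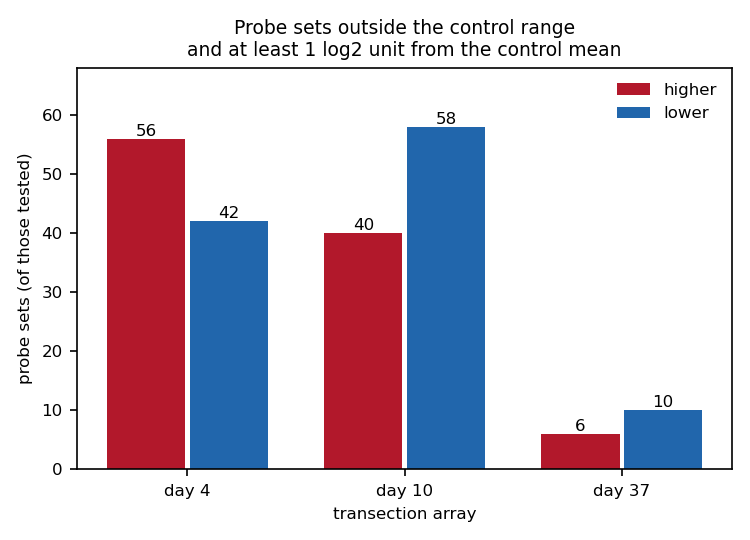
Number of the 4413 tested probe sets (vertical axis) that lay outside the range of all 7 controls and at least 1 log2 unit above (red) or below (blue) the control mean, for each transection array. The bars for day 37, with 6 higher and 10 lower, are the shortest.

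Jun, the transcription factor subunit of AP-1 that is induced in axotomized neurons, rose 2.26-fold. The log2 signal of the probe set that passed (rc_AI175959_at) was 10.53, 10.58 and 9.48 on days 4, 10 and 37, against a lowest, median and highest control value of 8.84, 8.94 and 9.26. Every transection array lay above every control, and the day 37 array lay nearest to them (log2 difference 1.18, SE 0.19; limma adjusted p = 0.044). The lysolecithin lesion arrays lay above every control too, at 9.751, 9.724 and 9.269 on days 4, 10 and 37, against a highest control of 9.264. The call held in 5 of 23 alternatives, with adjusted p between 8.25e-05 and 0.668. It was lost with quantile normalization (0.0523), without the intensity trend (0.0764), with the 10 arrays alone (0.181) and with any 1 control left out. A second Jun probe set (rc_AA945867_at) read 9.86, 9.87 and 8.06 after transection, against 6.22, 7.48 and 8.02 in the controls, again without overlap (adjusted p = 0.0736). In bulk RNA, more RNA per neuron cannot be told apart from a larger share of neurons in the tissue, here or for any gene below.

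Atf3, a stress-induced partner of Jun, had log2 signals of 10.90, 11.31 and 8.65 on days 4, 10 and 37. The controls spanned 7.83 to 8.96 with a median of 8.27. Days 4 and 10 lay above all controls and day 37 lay among them, so the difference of 2.07 (SE 0.42) had an adjusted p of 0.0736. With the day 37 array left out, Atf3 rose by 2.89 (SE 0.31; limma adjusted p = 0.000101), and the Jun probe sets rose by 1.53 and 2.45 (adjusted p = 8.26e-05 and 0.000815).

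**Figure D2:**
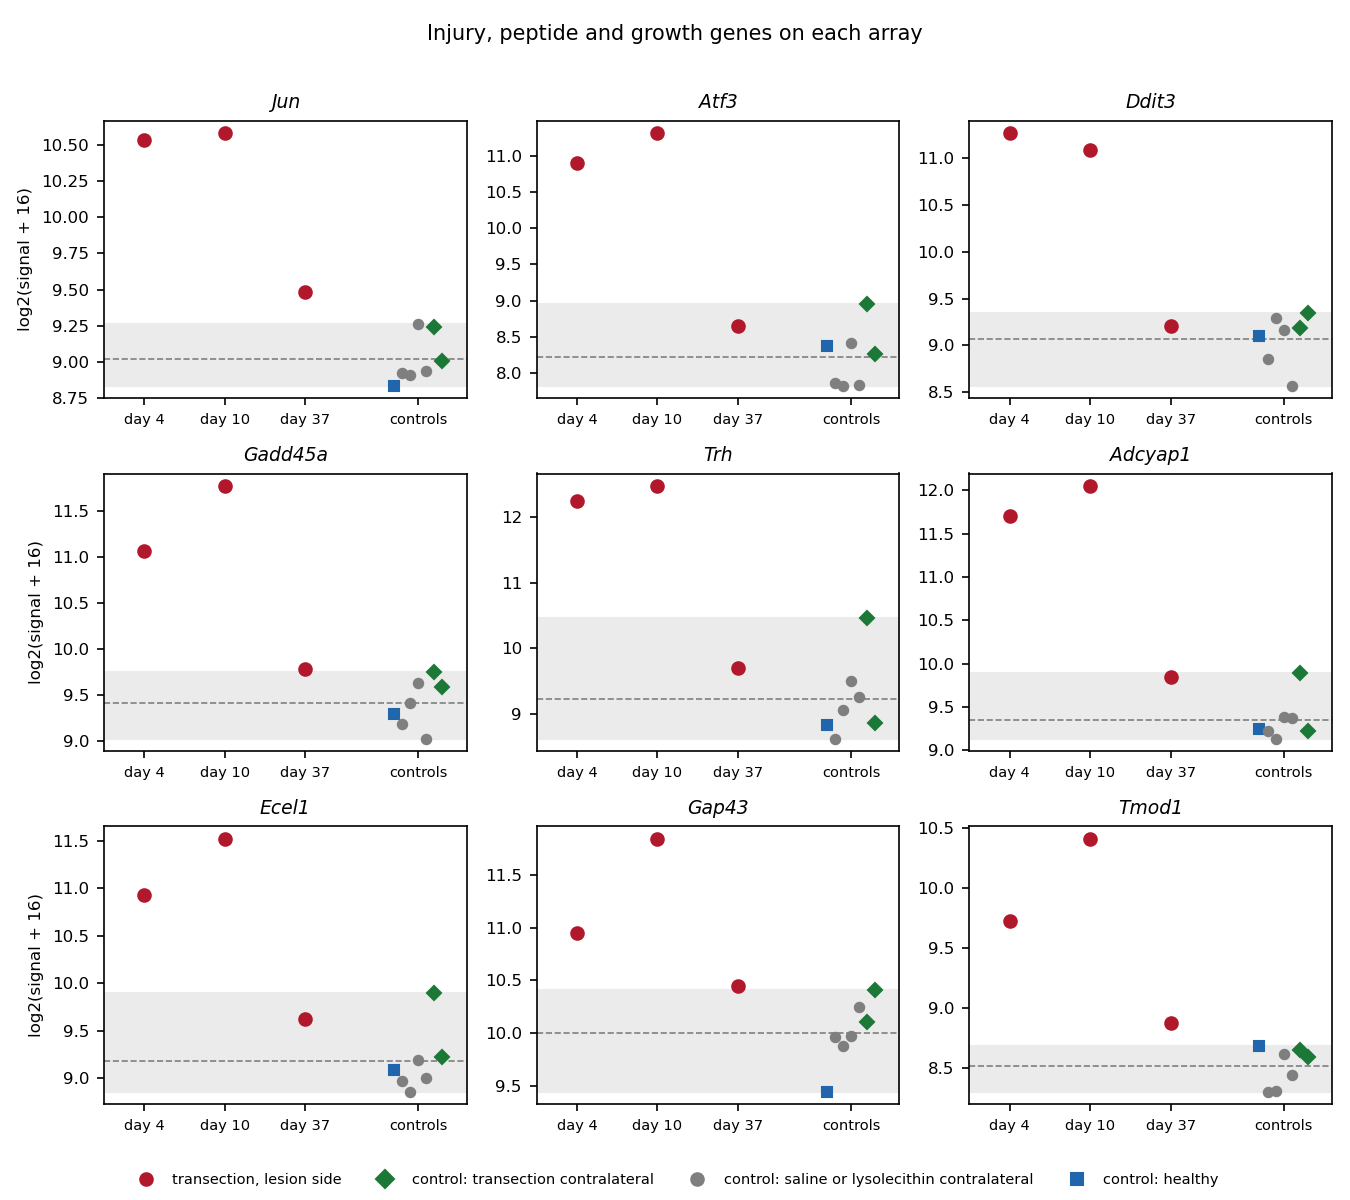
Each panel shows 1 gene, with log2(signal + 16) on the vertical axis. Red points are the transection arrays of days 4, 10 and 37, and the points on the right are the 7 controls (green diamonds, contralateral to a transection; grey, contralateral to saline or lysolecithin; blue square, healthy). Grey bands mark the control range and dashed lines the control mean. Days 4 and 10 stand above the band in all 9 panels, and day 37 lies in it or just above it.

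The stress genes Ddit3 and Gadd45a followed the same days. Ddit3 encodes CHOP, a transcription factor of the integrated stress response, and read 11.27, 11.09 and 9.20 on days 4, 10 and 37, against 8.57 to 9.35 (median 9.17) in the controls. Days 4 and 10 stood clear of the controls and day 37 lay among them; without the day 37 array the rise of 2.11 passed (SE 0.27; limma adjusted p = 0.000546). Gadd45a, a growth arrest and DNA damage gene, was read by 4 probe sets. The brightest, L32591mRNA_g_at, gave 11.07, 11.77 and 9.79 after transection, against 9.03 to 9.75 (median 9.42) in the controls, with no overlap (log2 difference 1.47, SE 0.29; adjusted p = 0.0736). L32591mRNA_at did not overlap either (8.63 on day 37, against a highest control of 8.52), while day 37 of rc_AI070295_at and rc_AI070295_g_at lay inside the control range. Leaving out day 37, 3 of these 4 passed, at rises of 2.64, 2.01 and 1.46. With L32591mRNA_g_at the lysolecithin lesion arrays read 10.45, 10.44 and 9.803 on days 4, 10 and 37, also above every control.

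All 6 tested genes of the p53-linked, growth arrest and stress list were above the control mean, with a median log2 difference of 0.40, while the median over all 4413 probe sets was -0.0051. The same 6 genes were above these controls after lysolecithin too, with a median of 0.46, and 1 of the 6 was after saline (median -0.20). Ccng1, a p53 target that encodes cyclin G1, read 11.11, 11.57 and 10.57, against 10.12 to 10.86 (median 10.58) in the controls. Dusp1, a phosphatase that switches off MAP kinases, read 10.13, 10.23 and 9.29, against 8.94 to 9.48 (median 9.29), and its rise of 0.95 passed without the day 37 array (SE 0.21; limma adjusted p = 0.0319). Cebpb, a transcription factor of the acute phase, read 8.32, 8.43 and 7.83, against 7.06 to 8.01 (median 7.62). For Ccng1, Dusp1 and Cebpb alike the day 37 array lay within the control range.

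The injury factors did not move as a family. Of the 16 tested members of the list of injury transcription factors and immediate early genes, 8 were above and 8 below the control mean, the median was 0.0027, and 1 passed (Jun). Fos, which pairs with Jun in the classical AP-1 dimer, stood below the controls early: X03347cds_g_at read 9.28, 9.03 and 10.07 on days 4, 10 and 37, against 9.84 to 10.51 (median 10.02). Days 4 and 10 were under every control and day 37 was among them, and without the day 37 array the fall of 0.90 passed (SE 0.18; limma adjusted p = 0.0197). A second Fos probe set (X06769cds_g_at) read 10.56, 10.87 and 11.22, against 10.83 to 11.51 (median 11.18), with day 4 alone below the controls. Arc, an activity-induced gene of dendrites, read 10.34, 10.39 and 10.90, against 10.69 to 11.27 (median 11.00), and did not pass with or without day 37 (limma adjusted p = 0.315 and 0.0783).

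Of the 18 tested neuropeptide and granin precursors, 11 were above the control mean, with a median of 0.06, and none passed. Trh encodes the precursor of thyrotropin-releasing hormone, and its probe set M36317_s_at read 12.24, 12.47 and 9.70 on days 4, 10 and 37, against 8.63 to 10.46 (median 9.06) in the controls. A second probe set, M23643cds_s_at, read 11.08, 11.20 and 9.11, against 8.57 to 9.74 (median 9.03). With both, days 4 and 10 were above every control and day 37 was not. Neither passed on all 3 days (limma adjusted p = 0.0948 and 0.197), and both rose without the day 37 array, by 3.13 (SE 0.44; adjusted p = 0.000865) and 2.04 (SE 0.31; adjusted p = 0.00196).

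Adcyap1, the precursor of the neuropeptide PACAP, was higher on 3 probe sets. The one with the largest difference, rc_AI228407_s_at, read 11.70, 12.05 and 9.85, against 9.13 to 9.90 (median 9.24), and X80290cds_s_at read 11.58, 11.79 and 10.07, against 9.33 to 10.40 (median 9.64). The third, M63006_at, read 11.61, 11.56 and 11.21, against 10.34 to 11.12 (median 10.81). That one did not overlap on any day, whereas the other two overlapped on day 37. Without the day 37 array all 3 passed, with rises of 2.52, 1.94 and 0.86 (limma adjusted p = 0.000101, 0.00262 and 0.0319).

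The enzymes that finish such peptides did not share 1 time course. Qpct, the glutaminyl cyclase that forms the pyroglutamyl end of the Trh peptide, read 7.53, 9.97 and 7.38, against 6.75 to 7.36 (median 7.14). Every transection array lay above the controls, but day 10 carried nearly all of the difference: without that array it was 0.36, against 1.20 on all 3 days. Pam, the amidating enzyme of Trh and PACAP, read 12.81, 12.92 and 12.46, against 12.22 to 12.54 (median 12.38), and rose by 0.50 without the day 37 array (SE 0.11; limma adjusted p = 0.034). Scg2, a granin of dense-core vesicles, read 12.44, 11.90 and 11.96, against 11.28 to 12.28 (median 11.70), and the related Chgb read 12.39, 11.63 and 12.30, against 12.25 to 12.78 (median 12.47).

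Genes of axon growth and of the actin skeleton came next. Gap43, a growth-cone protein, read 10.95, 11.84 and 10.45, against 9.44 to 10.41 (median 9.97), and no transection array overlapped the controls (log2 difference 1.08, SE 0.23; limma adjusted p = 0.0736). Day 37 exceeded the highest control, the array contralateral to the day 37 transection, by the smallest margin of the 3 days. Ret, the signalling receptor for GDNF-family factors, read 9.87, 9.64 and 9.53, against 8.68 to 9.27 (median 8.90). It differed from most genes above in that its day 37 value was close to those of the other days (log2 difference 0.71, SE 0.15; adjusted p = 0.0736).

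Ecel1, an endopeptidase induced in injured neurons, read 10.93, 11.52 and 9.62, against 8.86 to 9.90 (median 9.09), and rose by 2.04 without the day 37 array (SE 0.29; limma adjusted p = 0.000865). Sprr1a, a small proline-rich protein linked to axon outgrowth, stood out on day 10. Its probe set rc_AA891911_at read 9.001, 10.84 and 8.95, against 7.58 to 9.01 (median 8.36), and L46593cds_at read 11.10, 12.12 and 11.13, against 10.55 to 11.28 (median 10.94). Day 10 was above every control with both probe sets, and days 4 and 37 were within the control range. Neither passed, with or without the day 37 array (limma adjusted p = 0.257 and 0.389 on all 3 days). Of 16 tested regeneration-associated genes, 10 were above the control mean and none passed; their median was 0.06.

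Tmod1, which caps actin filaments, was called Absent on all 7 controls and Present on 2 of the 3 transection arrays. It read 9.73, 10.41 and 8.88, against 8.30 to 8.68 (median 8.59), a 2.23-fold rise with no overlap (limma adjusted p = 0.0736, and 0.00082 without the day 37 array). The lysolecithin lesion arrays read 9.23, 9.512 and 8.735 on days 4, 10 and 37, also above every control. So was the saline lesion array of day 37 (8.848). Folds given below as at least a value are bounds. On each array, a group Absent throughout is there set at its own signal or, if higher, at the lowest Present signal of that array. The actin regulators Cttn (cortactin) and Tmsb15b2 (a beta-thymosin) and the cell-surface proteoglycan Sdc1 (syndecan 1) were above every control on days 4 and 10 and within the control range on day 37. Without the day 37 array Cttn rose by 0.79, Tmsb15b2 by 1.24 and Sdc1 by 1.16 (limma adjusted p = 0.0102, 0.000584 and 0.00155). Ctsb, the lysosomal protease cathepsin B, rose by 0.72 there (adjusted p = 0.0319) and Nol3, an inhibitor of apoptosis, by 0.86 (adjusted p = 0.0133).

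Slc7a3, a carrier of cationic amino acids, read 8.74, 8.73 and 7.59, against 6.96 to 7.56 (median 7.36), without overlap. Slc3a2 encodes the heavy chain that joins light chains such as Slc7a5 to form a transporter of large neutral amino acids. One of its probe sets (X89225cds_s_at) read 11.60, 11.69 and 11.36, against 10.71 to 11.29 (median 11.11), also without overlap, while AB015433_s_at read 11.98, 12.61 and 12.14, against 11.51 to 12.32 (median 12.09), and overlapped on days 4 and 37. Slc7a5 itself read 11.47, 11.70 and 10.17, against 10.76 to 11.07 (median 10.96). It was above every control on days 4 and 10 and below every control on day 37. Without the day 37 array Slc7a3 and Slc7a5 rose by 1.40 and 0.65 (limma adjusted p = 0.0133 and 0.0129), whereas over all 3 days Slc7a5 differed by 0.18 (SE 0.22).

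Within the controls, the array contralateral to the day 10 transection was often the highest for these genes. It held the highest control value for 13 of the 40 probe sets that rose without the day 37 array, while it was the highest control for 12% of all 4413. Trh there reached 10.46, Adcyap1 9.90 (rc_AI228407_s_at), Ecel1 9.90 and Atf3 8.96. Leaving that control out gave log2 differences of 2.45 for Trh, 1.94 for Adcyap1, 1.63 for Ecel1 and 2.19 for Atf3. The healthy array read 8.83, 9.24, 9.09 and 8.37 for these 4 genes, inside the range of the 6 contralateral arrays.

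Neurofilament genes stood lower after transection. Ina, which encodes alpha-internexin, read 11.93, 11.58 and 12.13 with rc_AA875659_s_at, against 12.19 to 13.36 (median 12.80), and all 3 days lay below all controls (log2 difference -0.88, SE 0.19; limma adjusted p = 0.0736). It fell by 1.01 without the day 37 array (SE 0.22; adjusted p = 0.0311). Its other probe set, M73049_at, read 11.92, 12.02 and 12.54, against 10.79 to 12.85 (median 12.83). The healthy array gave the 10.79, and all 3 transection arrays lay below the 6 contralateral ones, which read at least 12.73.

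The 3 neurofilament chains that assemble with alpha-internexin read lower by smaller amounts. Nefl, the light chain, read 13.35, 13.08 and 13.38, against 13.41 to 13.79 (median 13.60), and did not overlap (log2 difference -0.33, SE 0.10; limma adjusted p = 0.241). Nefh, the heavy chain, read 10.35, 10.15 and 10.59 with X13804cds_at, against 10.61 to 11.04 (median 10.74), again without overlap. Its other probe set, rc_AA818677_at, read 13.15, 12.67 and 13.38, against 13.24 to 13.79 (median 13.39), and overlapped on day 37. Nefm, the medium chain, read 12.96, 12.62 and 13.01, against 13.00 to 13.23 (median 13.10), with day 37 at the lower edge of the controls. Lysolecithin lesion arrays shared some of these falls. With rc_AA818677_at they read 13.15, 13.20 and 13.18 on days 4, 10 and 37, below every control. They were also below every control for Nefm on days 4 and 37 (12.92 and 12.90) and for Nefl on day 4 (13.31). None was below the controls for Ina (rc_AA875659_s_at) or for Nefh with X13804cds_at. Over the 15 tested neurofilament and neuronal cytoskeleton genes, 9 were below the control mean and none passed; the median was -0.11.

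**Figure D3:**
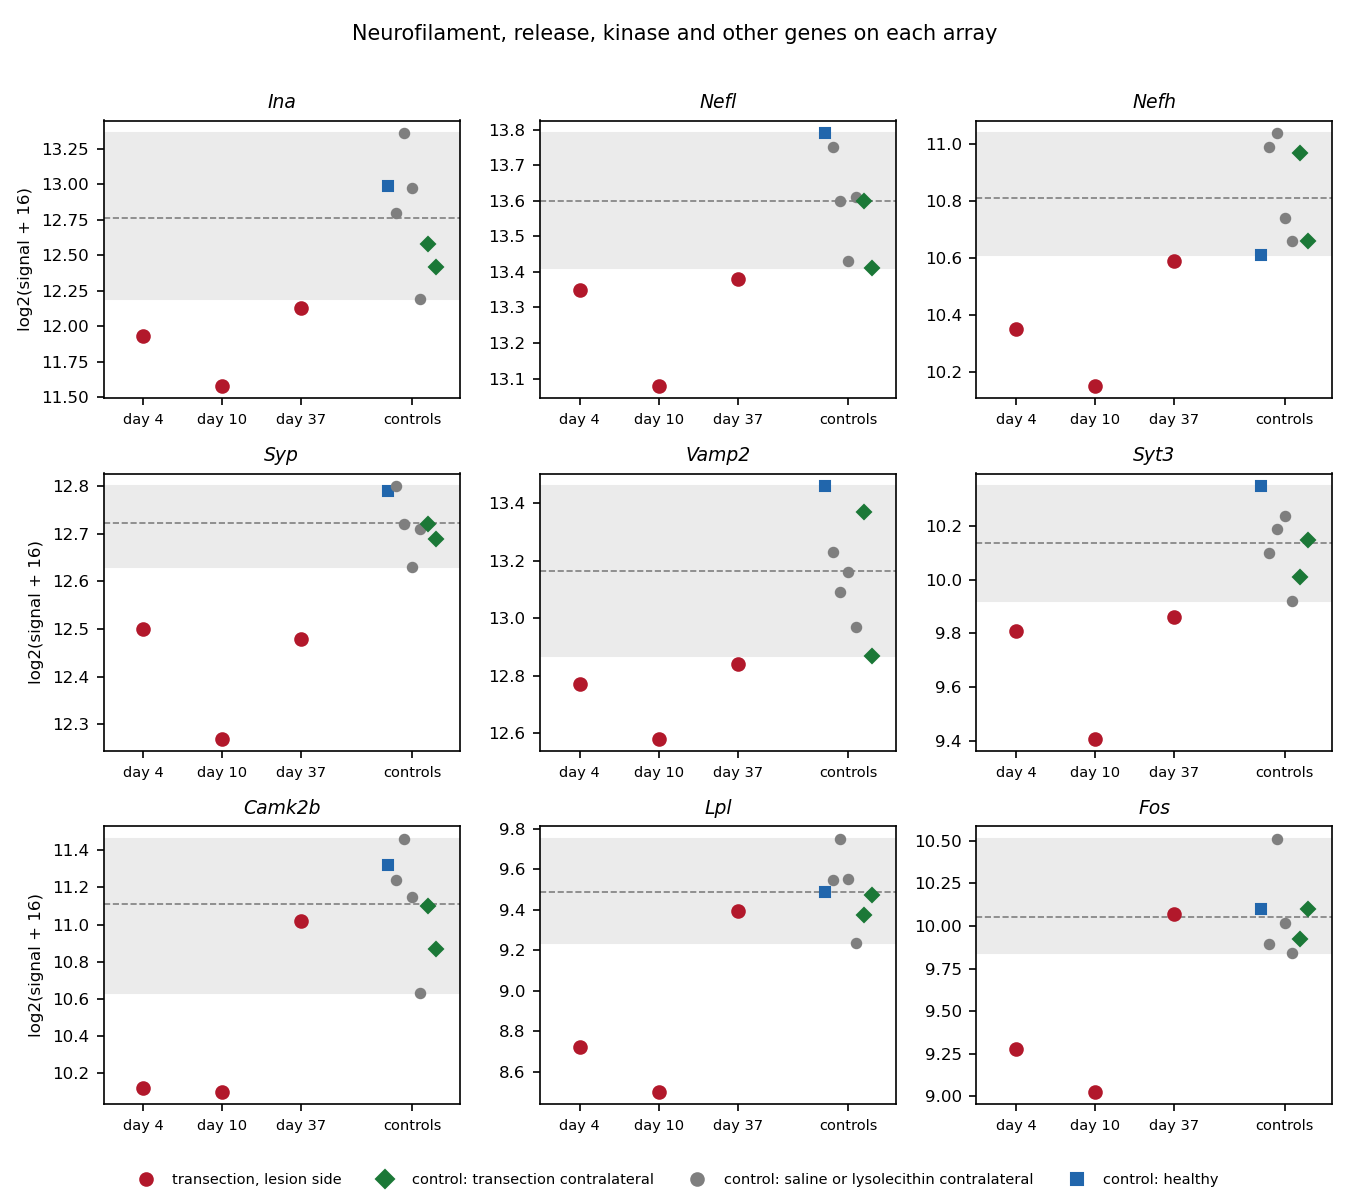
Each panel shows 1 gene, with log2(signal + 16) on the vertical axis. Red points are the transection arrays of days 4, 10 and 37, and the points on the right are the 7 controls (green diamonds, contralateral to a transection; grey, contralateral to saline or lysolecithin; blue square, healthy). Grey bands mark the control range and dashed lines the control mean. All 3 days lie below the band for Ina, Nefl, Nefh, Syp, Vamp2 and Syt3, and day 37 lies inside it for Camk2b, Lpl and Fos.

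Of the synaptic vesicle and release genes, most were below the control mean. Of 23 tested, 20 were lower (median of the log2 differences -0.25), 4 had all 3 transection arrays below all controls, and none passed. Over all 4413 probe sets 49.1% were above the control mean, and 1.31% lay below all controls. Vamp2, the vesicle SNARE of fast release, read 12.77, 12.58 and 12.84, against 12.87 to 13.46 (median 13.16). Syp, the vesicle protein synaptophysin, read 12.50, 12.27 and 12.48, against 12.63 to 12.80 (median 12.72). Cplx1, which clamps the SNARE complex, read 11.53, 11.43 and 11.63, against 11.66 to 12.36 (median 11.99), and the calcium sensor family member Syt3 read 9.81, 9.41 and 9.86, against 9.92 to 10.35 (median 10.15). These 4 were the members without overlap, with limma adjusted p between 0.1973 and 0.3005. On the lysolecithin lesion arrays Syp read 12.58, 12.58 and 12.61 on days 4, 10 and 37, below every control too. Those arrays were not below the controls for Vamp2 and Cplx1, and were so for Syt3 on day 10 alone (9.901).

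Other release genes overlapped the controls on some days. Sncb (beta-synuclein) read 9.98, 9.79 and 10.22, against 10.10 to 10.93 (median 10.49), and overlapped on day 37. Rims1, an active zone scaffold, read 6.88, 6.39 and 7.14, against 6.98 to 8.72 (median 7.34). Against the list's direction, Syt4, a synaptotagmin of dense-core vesicles, was higher: U14398_g_at read 11.43, 11.87 and 10.67, against 10.17 to 10.97 (median 10.75), and U14398_at read 11.38, 11.29 and 10.20, against 9.90 to 10.59 (median 10.17). Both Syt4 probe sets rose without the day 37 array, by 1.002 and 1.13 (limma adjusted p = 0.0319 and 0.0159).

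The release list followed the days. Its median difference was -0.30 on day 4, -0.37 on day 10 and -0.12 on day 37. Against its own contralateral array the median was -0.38 on day 10 and -0.01 on day 37. Without the healthy array, which held the highest control value of Vamp2, Cplx1 and Syt3, the median was -0.18 and 18 of 23 members were lower. The saline lesion arrays had a median of -0.11 and the lysolecithin lesion arrays 0.00085 against the same controls.

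Signalling genes lay on both sides of the controls. Over 31 tested genes of calcium and cyclic nucleotide signalling, 18 were below and 13 above the control mean, with a median of -0.04, and none passed. Among the higher, Adcy8, an adenylyl cyclase, read 8.66, 8.24 and 8.26, against 7.73 to 8.28 (median 7.99). Camk2b, a subunit of calcium/calmodulin-dependent kinase II, read 10.12, 10.10 and 11.02 with M16112_at, against 10.63 to 11.46 (median 11.15), and fell by 0.9985 without the day 37 array (SE 0.23; limma adjusted p = 0.0385). M16112_g_at of the same gene read 12.54, 12.09 and 12.71, against 12.51 to 13.04 (median 12.82), and was below the controls on day 10 alone. Prkaca, the catalytic subunit of protein kinase A, read 10.49, 10.46 and 10.55, against 10.61 to 11.08 (median 10.89), without overlap (adjusted p = 0.243). Prkce, a protein kinase C, read 9.99, 9.79 and 10.31, against 10.14 to 10.96 (median 10.67).

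Some of the lower signalling genes were dim after the cut. Matk, a kinase that restrains Src-family kinases, was called Absent on all 3 transection arrays and Present on 3 of 7 controls. It read 9.47, 8.94 and 9.82, against 9.97 to 10.54 (median 10.09), 1.69-fold lower (limma adjusted p = 0.0736, and 0.00561 without the day 37 array). Pde2a, a phosphodiesterase, was Absent on all 3 transection arrays and Present on 2 of 7 controls, and it was 1.66-fold lower (adjusted p = 0.0736, and 0.025 without day 37). Pde1b, another phosphodiesterase, read 9.76, 10.66 and 10.88, against 10.66 to 11.28 (median 11.14), and stood clear of the controls on day 4.

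Among receptors, Grm2, a presynaptic metabotropic glutamate receptor, read 8.39, 7.57 and 8.68, against 8.65 to 9.05 (median 8.77). It was below every control on days 4 and 10 and fell by 0.82 without the day 37 array (SE 0.18; limma adjusted p = 0.029). Of 19 tested glutamate receptor genes, 14 were below the control mean (median -0.13). Of 18 tested GABA, glycine, acetylcholine and serotonin receptor genes 14 were too (median -0.17), and no member of either list passed on all 3 days. Chrna4, a nicotinic receptor subunit, was Absent on all 3 transection arrays and Present on 3 of 7 controls, 1.36-fold lower and without overlap. The saline lesion arrays lay below every control too (8.375, 8.284 and 8.556 on days 4, 10 and 37). Chrna4 on the lysolecithin lesion arrays read 8.653, 8.329 and 8.585, with days 10 and 37 below every control. Kcna1, a potassium channel of axons, read 11.07, 11.33 and 11.27, against 11.04 to 12.17 (median 11.92). The lowest control there was the array contralateral to the day 37 transection. Slc12a5, the chloride extruder of mature neurons, read 11.69, 10.92 and 11.86, against 11.72 to 12.21 (median 12.02), and fell by 0.70 without day 37 (adjusted p = 0.0376).

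Other falls without the day 37 array included Cited2, a transcriptional co-regulator, which read 7.72, 8.13 and 8.94, against 8.49 to 9.91 (median 9.46), a fall of 1.43 (limma adjusted p = 0.0159). Lpl, lipoprotein lipase, read 8.72, 8.50 and 9.40, against 9.24 to 9.75 (median 9.49), a fall of 0.88 (adjusted p = 0.00221). Nrn1 (neuritin), Chn1 (a Rac-inactivating protein of axon guidance), Rgs8 (a brake on G proteins) and Grk2 (a receptor kinase) fell by 0.66, 0.83, 0.82 and 0.58 there. With these probe sets (M87854_at for Grk2), each of the 6 genes lay below every control on days 4 and 10 and within the control range on day 37. A second Grk2 probe set, S48813_s_at, read 9.003, 8.55 and 8.91, against 9.12 to 9.56 (median 9.19), below all controls on every day (limma adjusted p = 0.237, and 0.156 without day 37). Bcl2l1, which encodes the survival protein Bcl-xL, differed on every day: it read 8.33, 8.46 and 8.48, against 8.55 to 9.44 (median 9.27; adjusted p = 0.232). On the saline lesion arrays Bcl2l1 read 8.44, 8.52 and 9.04 on days 4, 10 and 37, with days 4 and 10 also below every control. Ndrg4, a gene of neurons and heart, did not give 1 answer: AF045564_at had no overlap (13.97, 13.76 and 13.91, against 14.16 to 14.65) and AF045564_g_at differed by -0.04.

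Glycolysis genes differed by enzyme. Of 14 tested genes, 9 were below the control mean with a median of -0.12, and none passed. Hk1, the hexokinase of brain, read 11.85, 11.93 and 12.10, against 12.11 to 12.64 (median 12.30), and was below all controls on each day. The phosphofructokinase genes Pfkm and Pfkl read 13.10, 12.98 and 13.35, and 9.98, 9.81 and 10.18, with control ranges of 13.23 to 13.49 and 10.09 to 10.86. Both were below every control on days 4 and 10. Slc2a1, a glucose carrier of the blood-brain barrier, read 12.60, 12.22 and 11.97, against 11.13 to 12.33 (median 11.88), and exceeded the controls on day 4.

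Ribosomal protein genes leaned upward as a group, by small amounts. Of 35 tested, 33 (94.3%) were above the control mean, while 49.1% of all 4413 probe sets were, and their median difference was 0.19. None passed, and 2 (Rpl4 and Rpl7a) had no overlap. Rpl7a read 12.50, 12.47 and 12.48, against 11.87 to 12.45 (median 12.26). Rpl4 read 12.27, 12.11 and 12.07, against 10.41 to 12.02 (median 11.82), with the healthy array at 10.41. Rps16 read 14.07, 13.88 and 13.62, against 13.37 to 13.80 (median 13.59).

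The group's shift belonged to the early days. Its median was 0.31 on day 4, 0.25 on day 10 and 0.0053 on day 37, with 32, 34 and 19 of the 35 members above the control mean. Against its own contralateral array, 33 of 35 were higher on day 10 (median 0.29) and 8 of 35 on day 37 (median -0.11). On the other lesion-side arrays the medians were 0.11 after lysolecithin and 0.09 after saline, with 29 and 27 of 35 above the same controls. The 33 tested respiratory chain genes had medians of 0.10, -0.21 and -0.04 on days 4, 10 and 37.

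**Figure D4:**
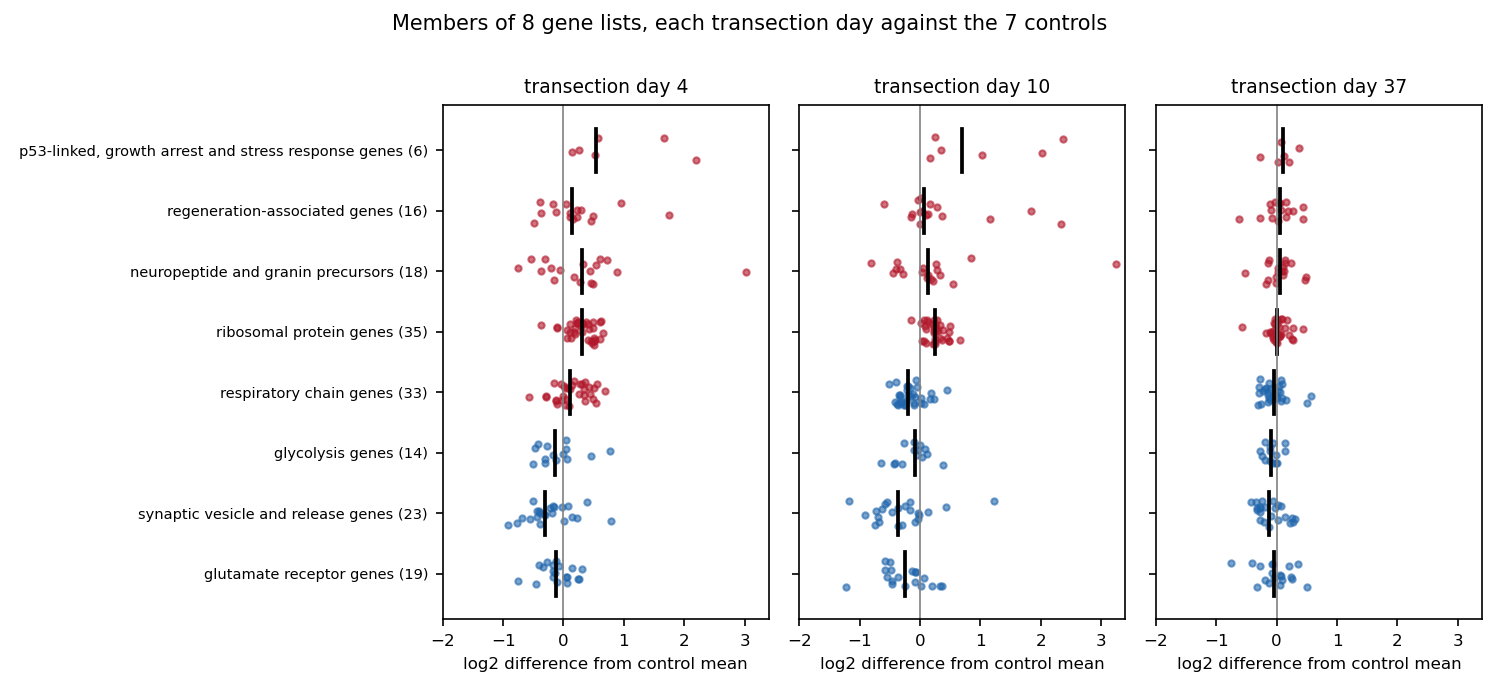
Each point is 1 gene, placed by its log2 difference from the mean of the 7 controls (horizontal axis), on the transection array of day 4 (left), day 10 (middle) and day 37 (right). Rows are gene lists with the number of tested genes in brackets, black bars are medians, and a list is red where its median is above 0 and blue where it is below. The ribosomal protein median is 0.31, 0.25 and 0.0053 across the days and the release gene median -0.30, -0.37 and -0.12.

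Antioxidant genes were mixed: 13 of 22 tested were above the control mean, with a median of 0.06. The peroxiredoxins Prdx1 and Prdx6, which remove peroxides, had no overlap. Prdx1 read 12.04, 11.60 and 11.54, against 11.01 to 11.50 (median 11.28), and Prdx6 read 12.50, 12.37 and 12.33, against 11.99 to 12.31 (median 12.25). Gstm2, a glutathione transferase, had none in the other direction, at 7.76, 8.05 and 7.89, against 8.17 to 8.75 (median 8.49). Saline lesion arrays of days 4 and 10 were also above every control for Prdx1 (11.78 and 11.61) and below for Gstm2 (7.993 and 8.106). For Prdx6 the saline array of day 4 alone was above (12.35). Lysolecithin arrays were outside the controls for Gstm2 on day 37 alone (7.903), and not for Prdx1. Of 15 tested unfolded-protein response and heat shock genes, 11 were above the control mean, with a median of 0.03. The chaperone Hspa5 (BiP) read 12.06, 11.74 and 11.63, against 11.18 to 11.83 (median 11.32), and was above every control on day 4 alone. None of these genes passed.

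Markers of other cells in the tissue were compared with the same arrays. Of 8 tested oligodendrocyte markers, 5 were above the control mean (median 0.09). Above all controls lay 2 of the 8, and 1.16% of all 4413 probe sets. Mog, a myelin protein, read 11.91, 11.84 and 11.76, against 11.39 to 11.72 (median 11.53), without overlap. Saline lesion arrays read 11.88 and 11.78 for Mog on days 4 and 10, also above every control. The other was Pdgfra, whose lowest transection value and highest control both round to 10.02. Of 18 astrocyte markers 8 were above (median -0.02), and of 13 microglia and macrophage markers 7 were (median 0.12). The summed signal of the microglia list was 25499.9 to 29010.5 on the transection arrays and 17956.5 to 33077.7 on the controls. Its members Ctss, C1qb, Cd14, Lyz2, Lgals3, Cd63 and Spp1 were Present on all 10 arrays, and Itgam, Csf1r, Cx3cr1, Ptprc and Cd4 on 0 of the 10. The summed signal of the oligodendrocyte list was 61843.9 to 66447.3, against 52931.5 to 69620.7. The part of these cells in the gene differences was not tested. Th, Dbh and Chat, of catecholamine and cholinergic neurons, and Ttr, of choroid plexus, were Present on 0 of the 10. Ache, another cholinergic marker, and Enpp2, another choroid plexus marker, were Present on all 10. Of 8 tested pontine neuron markers, 3 were above and 5 below the control mean (median -0.04), with summed signals of 34268.5 to 40962.2, against 38120.8 to 48086.7. They included Nefl, lower without overlap, and Gap43, higher without overlap. Snap25 read 12.86 to 13.24, against 12.63 to 13.26, Camk2a was Present on 0 arrays, and Slc17a7, Slc17a6, Barhl1 and Atoh1 were not analysed here.

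A few genes departed on 1 day. On day 4, Eif2s3, a subunit of translation initiation factor 2, read 9.10, against 10.70 to 11.23 in the controls, and was at 11.30 and 10.93 on days 10 and 37. Grb10, an adaptor of insulin-family receptors, read 9.03, 10.62 and 10.52, against 9.99 to 10.89 (median 10.46). On day 37, the transferrin receptor Tfrc read 7.29, against 8.01 to 8.81, and was at 8.51 and 8.21 on days 4 and 10. The kinase Map2k5 read 9.28, 9.03 and 8.14, against 8.99 to 9.36 (median 9.17). Each rests on 1 array and has no replicate check.

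A second contrast asked where transection differed from the other interventions on the lesion side. It set the 3 transection arrays against the 6 saline and lysolecithin lesion-side arrays in the same fit. None of 4413 probe sets passed (limma, 0.00%), and 350 had an unadjusted p under 0.05 (7.93%). Leaving out the day 37 lesion-side arrays of all 3 interventions, an alternative added after the data were seen, kept the days matched at 4 and 10. There 15 passed, 14 higher (0.317%) and 1 lower (0.0227%). Those higher after transection included Trh (log2 difference 2.16 with M36317_s_at), Atf3 (2.10), Gadd45a (1.90 with L32591mRNA_at), Adcyap1 (1.75 with rc_AI228407_s_at), Ecel1 (1.39), Ddit3 (1.37), Tmod1 (1.18) and Jun (1.16), with limma adjusted p of 0.000983 to 0.0274. The 1 lower was Lpl (-0.80, adjusted p = 0.0435), and Cited2, Matk, Grm2 and Slc12a5 did not pass (adjusted p = 0.169, 0.0798, 0.129 and 0.144). Leaving out the day 37 array of transection alone gave 35 calls, 20 higher (0.453%) and 15 lower (0.340%, 0.793% in all), but that contrast sets days 4 and 10 against days 4, 10 and 37, so that intervention and day cannot be told apart in it. With day as a term and all 9 lesion-side arrays, 1 probe set passed, and it was lower. Atf3 averaged 10.29 ± 1.43 after transection (SD, n = 3), and its mean was 9.36 after lysolecithin and 8.25 after saline, against 8.22 ± 0.42 in the controls (SD, n = 7). Trh (M36317_s_at) averaged 11.47 ± 1.53 after transection, 10.40 after lysolecithin and 9.19 after saline, against 9.23 ± 0.62 in the controls. By day (4, 10 and 37), the lysolecithin lesion arrays read 9.61, 9.92 and 8.55 for Atf3, 10.30, 10.26 and 9.06 for Ddit3, and 11.29, 10.66 and 9.27 for Trh. Days 4 and 10 were above every control for each, as after transection, and day 37 was within the control range. Comparisons of the interventions with the controls share the 7 control arrays.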

How the data were processed

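RNA of rat pontine nuclei was hybridised to 16 Affymetrix arrays, 1 per condition. Per the file headers, the authors deposited a MAS5 signal intensity for each of 8799 probe sets with a detection p-value and a Present or Absent call. MAS5 is also named in the submitters' processing notes, and its version and scaling target are not given in the sources used here. The authors also deposited a series table of 7773 probe sets with log2-like values, whose scale and centring are unstated; it served as an alternative.

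The scaling of the deposited signals was left as it was, and log2(signal + 16) was analysed. Probe sets Present on at least 3 of 16 arrays were fitted with limma 3.58.1 in R 4.3.3, in 4 groups (transection lesion side, lysolecithin lesion side, saline lesion side and control) with an intensity trend and Benjamini-Hochberg adjustment at 0.05. The fit was tested on simulated data. Platform annotation gave 1 symbol for 6283 probe sets, several for 280 and none for 2236, and probe sets with several or none were not named.

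The arrays compared, the gene lists and the genes named were chosen with earlier results of these data known. Genes were named where they passed the threshold, were among the 15 largest differences each way without overlap, were among the 8 highest or lowest of a day, were among the 10 largest each way that passed with a transection array left out or against the other lesions, or were list members without overlap or with an unadjusted p under 0.05. Other probe sets of named genes were chosen after their values were seen, as were Sdc1, Tmsb15b2, Ctsb, Cttn, Nol3, Slc12a5, Chn1, Rgs8, Nrn1, Cyp26b1 and Grk2 with M87854_at. Lists used the brightest probe set of each gene.

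Lesion and contralateral arrays of the same intervention and day were checked for pairing. Their deviations correlated at 0.432, 0.202, 0.162, -0.144, 0.227 and 0.102 over the 6 pairs (saline, lysolecithin and transection, days 10 and 37 of each). The highest correlation of each lesion array with another contralateral array was 0.172, 0.186, 0.0534, 0.208, 0.0846 and 0.0917. Every pair but lysolecithin on day 37 exceeded that value, some by little. A shared animal was not shown, and the main fit did not pair these arrays. Alternatives changed the offset, the scaling, the values used, the detection filter, the trend, the weights, the controls, the days and the arrays left out.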

Additional observations from a re-analysis of the deposited data

Results flagged for a closer look

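Some control arrays stood apart from the other 6 by the gap between neighbouring values, a criterion that chance meets in about 1 of 20 groups. It was met by 8 of 117 probe sets examined. The array contralateral to the day 10 transection was highest for Adcyap1 (rc_AI228407_s_at, 9.90) and for Ecel1 (9.90). The array contralateral to saline on day 37 was lowest for Jun (rc_AA945867_at, 6.22) and highest for Fos (X03347cds_g_at, 10.51) and Grm2 (9.05). The healthy array was lowest for Ina (M73049_at, 10.79), Rpl4 (10.41) and Chn1 (11.95).

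For some genes every transection array lay on one side of the control mean and every array of another lesion on the opposite side. The differences between the lesion means follow, on the log2 scale, and were not tested one by one for this. Transection minus saline was 1.61 for Trh (M23643cds_s_at), 1.47 and 0.95 for Sprr1a (rc_AA891911_at and L46593cds_at) and 0.50 for the astrocyte gene Clu. It was -0.56 for Chgb, -0.38 for Nefm, -0.75 for Sncb, -0.60 for the vesicle gene Sv2b, -0.69 for Grm2, -0.73 for Slc12a5 and -0.79 for Rgs8. Transection minus lysolecithin was 0.31 for Prdx6. It was -0.63 for Bcat1, an enzyme of branched-chain amino acids, -0.70 for Cplx1, -0.72 for the endocytic adaptor Epn1, -0.94 for Kcna1 and -0.79 for Camk2b. It was -0.47 for Hk1, -0.96 for Bcl2l1, -0.83 for the survival gene Faim2 and -0.65 for Grk2. Saline lesion arrays shared some of these falls. On days 4 and 10 they were below every control for Bcl2l1 (8.44 and 8.52) and Faim2 (11.90 and 11.89). On day 4 alone they were so for Bcat1, Cplx1, Epn1, Kcna1, Camk2b and Hk1.

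Of 4327 probe sets left out of the tests by their detection calls, 19 lay above every control on all 3 transection arrays (0.439%). Among the left-out probe sets, 101 were Present on at least 1 transection array and on no control, and 5 of them lay above every control. For these 5 the controls give only a bound. They were picked for high values after transection, so their direction is set by the choice and is no result. Ucn (urocortin, a neuropeptide) was at least 3.4-fold higher after transection, Tgfb3 (a growth factor) at least 2-fold, Lat at least 1.84-fold, P2rx5 (an ATP receptor) at least 1.75-fold and Pvr at least 1.68-fold. None of these was tested.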

How the results depend on the processing

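Of 117 named probe sets under 2684 alternatives in all, 2598 values kept their direction and side of the threshold, 18 lost the call, 53 gained one and 15 changed sign; 110 probe sets never changed sign. The adjusted p of Jun (rc_AI175959_at) ranged between 8.25e-05 and 0.668 over 23 alternatives and was under 0.05 in 5. Transection against control gave 1 call, Jun. Array weights also gave 1, but a lower one (Cyp26b1, Absent on all 10 arrays), and Jun was lost (0.121). The count was 0 with quantile normalization, without the detection filter, without the trend, with the 10 arrays alone, with the 6 contralateral controls, and with days 10 and 37 against their own contralateral arrays (replicate block). It gave 6 with the series table, 3 with the saline contralateral and healthy controls, and 2 with days 10 and 37 without the block. Leaving out 1 array gave 0 to 64: 64 without day 37, 2 without day 4, 0 without day 10 and 0 without any 1 control. Against the other lesions there were 0 calls, 1 with array weights, 1 with day as a term (replicate block), 15 with days 4 and 10 alone on the lesion side (chosen after seeing the data), and 0 to 35 with 1 array left out (35 without day 37). The 58 probe sets below all controls became 123 without the detection filter. Day 4 had 90 higher with the series table. Day 10 had 24 lower with an offset of 64, 37 with quantile normalization and 36 with the table. Day 37 had 0 higher and 5 lower with the offset of 64. With 1 array left out in turn, the differences that changed sign spanned -0.18 to 0.041 for Ndrg4 (AF045564_g_at; 0.0053 without day 37), -0.98 to 0.12 for Eif2s3, -0.63 to 0.17 for Grb10, -0.11 to 0.65 for Slc7a5, -0.57 to 0.0008 for Map2k5 and -0.59 to 0.024 for Tfrc. Ndrg4 was 0.016 with quantile normalization and 0.019 with the series table. On days 10 and 37 without the block, Eif2s3 was 0.12 and Grb10 0.25, and against the own contralateral arrays (replicate block) they were 0.20 and 0.45, and Slc7a5 -0.083. Ina (M73049_at) was 0.0072 with the saline contralateral and healthy controls. The causes of these changes were not tested, and the number of arrays, 1 per condition, limits all of them.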
